A study of Mus musculus with 10 samples.

Results

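The 9 genes described here make, break down or receive prostaglandin E2 (PGE2): Pla2g4a, Ptgs1, Ptgs2, Ptges, Ptges2, Ptges3, Hpgd, Ptger2 and Ptger4. They were taken by symbol from a table of 37991 Ensembl gene identifiers, and all 9 had a row. The RNA came from primary murine keratinocytes, the main cells of the epidermis, grown from skin of pups at postnatal days 4 to 5 on collagen in a serum-free medium with 0.05 mM calcium chloride. The groups were Bcl10-/- keratinocytes (knockout) given recombinant mouse IL-17A at 200 ng/mL over 5 h (n = 2), unstimulated knockout keratinocytes (n = 2), Bcl10+/- keratinocytes of littermates (heterozygous) given the same IL-17A (n = 3), and unstimulated heterozygous keratinocytes (n = 3). All pups carried the strain label Bcl10tm1Mak, so every culture, controls included, had at least 1 mutant copy, and no wild-type culture was compared. BCL10 links CARD-family scaffold proteins with MALT1 on the way to NF-kB activation. IL-17A is a cytokine of T cells to which keratinocytes respond.

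Prostaglandins are lipid signals made from arachidonic acid. Cytosolic phospholipase A2 frees that acid from membranes, cyclooxygenases convert it to prostaglandin H2, and terminal synthases turn this into PGE2 or other prostanoids. PGE2 acts through the receptors EP1 to EP4, of which EP2 and EP4 raise cyclic AMP, and it is inactivated inside cells by 15-hydroxyprostaglandin dehydrogenase. In skin, PGE2 is known for its part in inflammation, wound repair and the proliferation of keratinocytes.

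Levels are given as FPKM (fragments scaled to the length of the gene model and the size of the library), and libraries of 1 genotype with the same replicate number are called a culture. The depth, read from the steps of low values, was 15.9 to 50.02 M fragments, so that for a gene 1 kb long the level of 3 fragments lay between 0.0600 and 0.189 FPKM. Bcl10 itself did not follow the labels in every library, so knockout and heterozygous below mean libraries so labelled. Bcl10 stood at 16.4 and 16.6 FPKM in the IL-17A-treated libraries labelled knockout and at 0.969 and 17 FPKM in the unstimulated ones. Heterozygous culture 1 was at 16.3 and 18.0 FPKM, whereas the 4 libraries of the other heterozygous cultures were at 59.5 to 72.3 FPKM. The titles also carry a library number, which is 1 to 14 for both knockout cultures and for culture 1 of the heterozygous group. It is 33 to 38 for its cultures 2 and 3, so those heterozygous cultures differ from the knockout in both genotype and number set, which cannot be told apart. Which part of Bcl10 the allele lacks is unknown here. Krt5, the keratin of basal keratinocytes, stood at 4430 to 6426 FPKM, and Ptprc, Cd207, Cd3e and Itgam, markers of leukocytes, were listed at 0 in 10 of 10 libraries. Cd68, a macrophage marker and the last of the 5 leukocyte markers, was present in every library, at 5.10 to 6.72 FPKM in libraries 33 to 38 and 7.79 to 10.5 FPKM in libraries 1 to 14; its part in the results was not tested.

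The start of 3 members is shown because the results below turn on them: Ptgs2 and Ptges, whose levels separated the labelled genotypes, and Hpgd, which was lower with IL-17A in every culture. Each stretch runs 5′ to 3′ on the gene's strand, from 100 bases before to 30 bases after the start that RefSeq annotates, on GRCm38.p6 (the assembly behind mm10). Capitals mark matches to 4 motifs searched on both strands of the 300 bases around each start: the C/EBP palindrome TTGCGCAA, the CRE core TGACGT (here as ACGTCA), the E-box CACGTG and the TATA box TATAAA.
Ptgs2, chr1:150099931-150100060, plus strand: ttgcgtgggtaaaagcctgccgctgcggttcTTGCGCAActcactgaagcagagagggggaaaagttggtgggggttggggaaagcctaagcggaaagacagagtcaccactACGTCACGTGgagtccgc
Ptges, chr2:30903268-30903397, minus strand: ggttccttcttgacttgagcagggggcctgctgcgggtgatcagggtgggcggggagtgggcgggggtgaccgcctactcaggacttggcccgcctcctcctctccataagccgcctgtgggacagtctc
Hpgd, chr8:56294452-56294581, plus strand: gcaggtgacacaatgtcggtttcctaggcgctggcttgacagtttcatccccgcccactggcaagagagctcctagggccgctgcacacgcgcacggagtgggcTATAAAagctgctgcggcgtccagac

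The Ptgs2 stretch held the C/EBP palindrome at bases -69 to -62 from the start, and a CRE core at bases 13 to 18 that overlaps an E-box at bases 17 to 22. Of 32851 RefSeq mouse promoters of the same length, 0.183% held the C/EBP palindrome, 7.51% the CRE core and 7.15% the E-box. The Hpgd stretch held TATAAA at bases 5 to 10, a motif found in 13.6% of the promoters, and the Ptges stretch held none of the 4 motifs. These are matches of letters, not shown to be bound sites. Their offsets hold for the RefSeq starts only. The gene span given below for Hpgd starts at base 56294585, past the TATAAA, whereas the RefSeq start is 56294552. That of Ptges, on the minus strand, starts at base 30929863, whereas the RefSeq start shown is 30903297.

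Ptgs2, which encodes the inducible cyclooxygenase COX-2, was the most abundant member in every library, at a mean of 179 FPKM, above 99.1% of all identifiers by its mean. The order of the means below it was Ptges3 at 111 FPKM, Ptges at 80.0, Ptges2 at 14.0, Pla2g4a at 10.8, Hpgd at 4.43, Ptger4 at 0.946, Ptgs1 at 0.202 and Ptger2 at 0.0140 FPKM. Each member stood above the next in 10 of 10 libraries. The ranges over libraries nevertheless overlapped between Ptges2 and Pla2g4a, between Ptger4 and Ptgs1 and between Ptgs1 and Ptger2. Of the 9 members, 6 had a mean of at least 1 FPKM and entered the tests; Ptger4, Ptgs1 and Ptger2 did not.

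**Figure D1:**
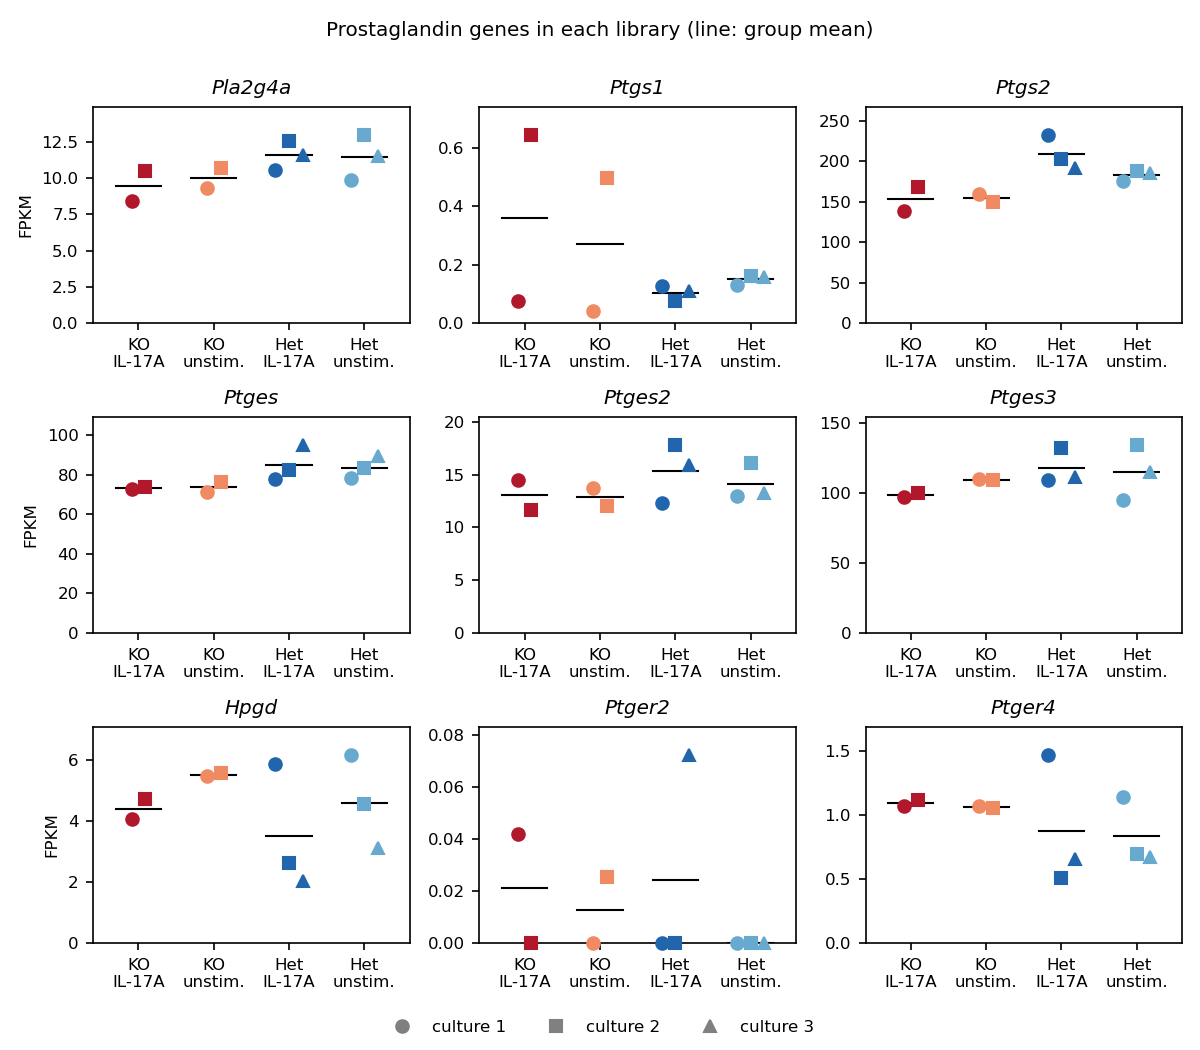
FPKM (vertical axes, each from 0) of the 9 genes in the 10 libraries, by genotype and IL-17A; each point is a library, its shape the culture number, and the line the group mean. All 4 knockout libraries lie below all 6 heterozygous libraries for Ptgs2 (137.9 to 168.2 against 175 to 232.1 FPKM) and Ptges, while Ptgs1 is highest in knockout culture 2.

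The first step, the release of arachidonic acid, was represented by Pla2g4a (ENSMUSG00000056220, chr1:149829618-149961290, minus strand, GRCm38), the gene of cytosolic phospholipase A2 alpha. Pla2g4a stood at 8.43 and 10.5 FPKM in IL-17A-treated knockout libraries and at 10.6, 12.6 and 11.6 FPKM in IL-17A-treated heterozygous libraries. It stood at 9.35 and 10.7 FPKM in unstimulated knockout libraries and at 9.88, 13.0 and 11.5 FPKM in unstimulated heterozygous libraries. With IL-17A the genotypes did not overlap, by a margin of less than 0.1 FPKM, and without it they did. Of 15 other genes listed for phospholipases A2, the activator gene Plaa among them, 14 had a row and 3 were tested. Plaa, an activator of phospholipase A2, ranged from 23.4 to 27.9 FPKM, Pla2g12a, a secreted enzyme, from 10.8 to 14.2 FPKM, and Pla2g6, a calcium-independent enzyme, from 1.26 to 2.23 FPKM. None of the 3 passed in any comparison. Pla2g2a, Pla2g3, Pla2g5 and Pla2g10, secreted phospholipases, were listed at 0 in 10 of 10 libraries. Pla2g4b was not analysed here.

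The cyclooxygenase step was carried by Ptgs2 (ENSMUSG00000032487, chr1:150100031-150108227, plus strand). Ptgs2 stood at 137.9 and 168.2 FPKM in IL-17A-treated knockout libraries and at 232.1, 202.9 and 191.4 FPKM in IL-17A-treated heterozygous libraries. Without stimulation it stood at 158.9 and 150.1 FPKM in knockout libraries and at 175, 188.2 and 185.1 FPKM in heterozygous libraries. Every knockout library was therefore below every heterozygous library, also below those of heterozygous culture 1, whose Bcl10 level was close to that of 3 of the 4 knockout libraries.

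Ptgs1 (ENSMUSG00000047250, chr2:36230426-36252272, plus strand), which encodes the constitutive cyclooxygenase COX-1, was near the lower limit of these libraries: in a gene model of its length, 3 fragments equal 0.0154 to 0.0487 FPKM. It stood at 0.0759 and 0.645 FPKM in IL-17A-treated knockout libraries and at 0.0398 and 0.499 FPKM in unstimulated ones, against 0.0764 to 0.125 FPKM in IL-17A-treated and 0.131 to 0.162 FPKM in unstimulated heterozygous libraries. The 2 libraries of knockout culture 2 stood above all others and those of knockout culture 1 at the low end. Ptgs2 exceeded Ptgs1 by 261 to 301 times in knockout culture 2 and by 1161 to 2657 times in 7 of the other 8 libraries, per kilobase. No ratio is given for the unstimulated library of knockout culture 1, where Ptgs1 was under the level of 3 fragments. The libraries in which Ptgs1 was high also held the 4 fibroblast markers at summed levels of 24.5 FPKM with IL-17A and 23.5 FPKM without, against 0.159 to 0.437 FPKM in the other 8, with Dcn at 8.62 and 7.60 FPKM against 0 to 0.133. Ptgis, prostacyclin synthase, was listed at 0.454 and 0.494 FPKM in the same libraries and at 0 in the other 8, and Ptgir, the prostacyclin receptor, at 0.440 and 0.535 FPKM against at most 0.0547. The part of other cells in the Ptgs1 level was not tested, and in bulk RNA fewer cells of a type and less RNA per cell cannot be told apart.

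**Figure D2:**
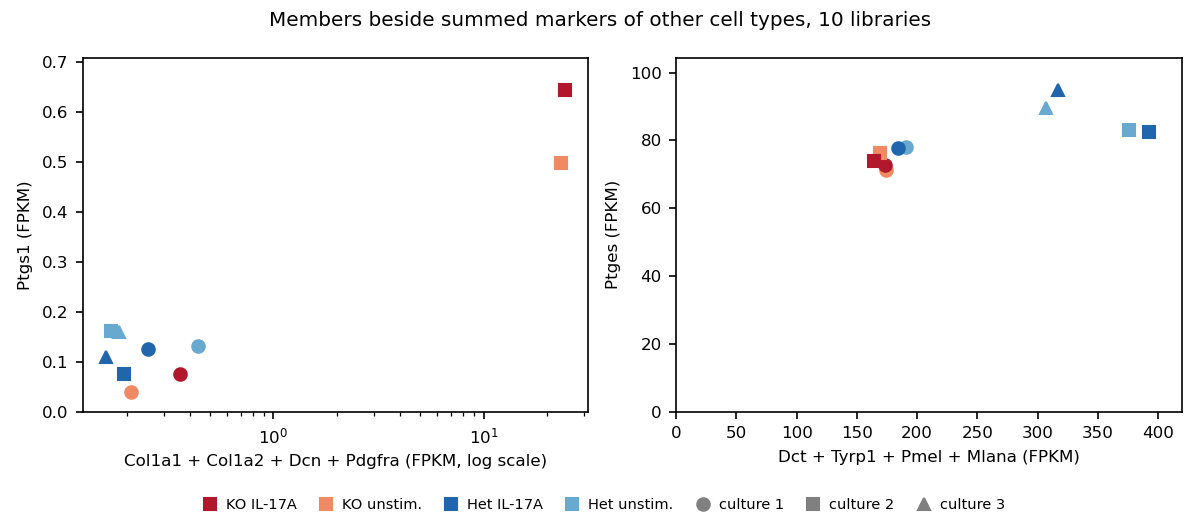
Left, Ptgs1 in FPKM against the summed FPKM of Col1a1, Col1a2, Dcn and Pdgfra (log axis); right, Ptges in FPKM against the summed FPKM of Dct, Tyrp1, Pmel and Mlana; points are the 10 libraries, coloured by group and shaped by culture number. The 2 libraries of knockout culture 2 stand apart on the left, and the 4 libraries of heterozygous cultures 2 and 3 on the right.

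Among the terminal synthases of PGE2, Ptges (ENSMUSG00000050737, chr2:30889471-30929863, minus strand), which encodes the inducible microsomal synthase, stood at 72.7 and 73.9 FPKM in IL-17A-treated knockout libraries and at 77.9, 82.5 and 94.9 FPKM in IL-17A-treated heterozygous libraries. It stood at 71.3 and 76.3 FPKM in unstimulated knockout libraries and at 78.1, 83.1 and 89.5 FPKM in unstimulated heterozygous libraries. As for Ptgs2, all 4 knockout libraries lay below all 6 heterozygous ones, but the gap to heterozygous culture 1 was under 2 FPKM. Of the 12054 genes tested, 2.21% had all 4 knockout libraries below all 6 heterozygous ones, and of the 6 tested members Ptgs2 and Ptges did. Ptges2 (ENSMUSG00000026820, chr2:32395896-32405772, plus strand), a membrane-associated synthase, was lower at 11.6 to 14.5 FPKM in knockout and 12.3 to 17.8 FPKM in heterozygous libraries, and these ranges overlapped. Ptges exceeded Ptges2 by 4.63 to 6.76 times in all libraries.

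Ptges3 (ENSMUSG00000071072, chr10:128058954-128077272, plus strand) encodes the cytosolic synthase p23, which is also a co-chaperone of HSP90. It ranged from 97.2 to 109.5 FPKM in knockout and from 95.1 to 133.9 FPKM in heterozygous libraries. Its level is uncertain, since the pseudogene Ptges3-ps was listed at 92.4 to 128 FPKM and how reads were shared between the copies is unknown here.

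Of 7 other terminal prostanoid synthases, 5 were tested and none passed. Ptgds, the lipocalin-type prostaglandin D2 synthase, stood at 5.42 to 6.27 FPKM in knockout libraries, against 6.15 and 7.50 FPKM in heterozygous culture 1 and 10.9 to 12.4 FPKM in the remaining 4 libraries. Hpgds, the haematopoietic prostaglandin D2 synthase, was higher with IL-17A in 5 of 5 cultures, by 0.27 on the log2(FPKM + 1) scale (SE 0.084, adjusted p = 0.711 by limma). The share of all genes higher with IL-17A in every culture is not given here. Cbr1, a carbonyl reductase that acts on PGE2, and Akr1b3, an aldose reductase with prostaglandin F synthase activity, were both higher in all 4 libraries of heterozygous cultures 2 and 3 than in the other 6, Cbr1 at 16.99 to 22.5 against 13.5 to 15.2 FPKM. Prxl2b, a prostamide and prostaglandin F synthase, ranged from 4.62 to 7.39 FPKM.

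Breakdown was represented by Hpgd (ENSMUSG00000031613, chr8:56294585-56321043, plus strand), the gene of 15-hydroxyprostaglandin dehydrogenase, which varied the most among the tested members, with an SD of 0.42 on the log2(FPKM + 1) scale against 0.13 to 0.22 for the other 5. Hpgd stood at 4.09 and 4.74 FPKM in IL-17A-treated knockout libraries and at 5.47 and 5.60 FPKM in unstimulated ones. It stood at 5.88, 2.63 and 2.04 FPKM in IL-17A-treated heterozygous libraries and at 6.17, 4.56 and 3.11 FPKM in unstimulated ones. Within each culture the IL-17A-treated library was the lower one, but heterozygous culture 1 with IL-17A was above all libraries of the other cultures. The genes whose profiles over the 10 libraries were most like that of Hpgd were Timp3, Zfp296 and Klk5, with root-mean-square differences of 0.141, 0.168 and 0.173 between centred log2(FPKM + 1) profiles. These describe likeness over 10 libraries that share cultures.

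Of 5 other genes of transport and breakdown, 4 were tested and none passed. Slco2a1, the prostaglandin transporter that takes PGE2 into cells, stood at 24.2 to 29.5 FPKM in knockout and 12.4 to 23.0 FPKM in heterozygous libraries. These did not overlap, and the share of all genes higher in every knockout library is not given here. The Slco2a1 difference with IL-17A was 0.63 on the log2(FPKM + 1) scale (SE 0.233, limma adjusted p = 0.507). Abcc4, a pump that exports prostaglandins, ranged from 1.68 to 2.47 FPKM. Ptgr1 and Ptgr2, prostaglandin reductases, ranged from 18.9 to 26.4 FPKM and from 3.46 to 7.63 FPKM.

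Both receptor genes were below the limit for the tests. Ptger4 (ENSMUSG00000039942, chr15:5206661-5244187, minus strand), the gene of EP4, stood at 1.07 and 1.12 FPKM in IL-17A-treated knockout libraries and at 1.07 and 1.05 FPKM in unstimulated ones, against 1.47, 0.506 and 0.659 FPKM in IL-17A-treated and 1.14, 0.699 and 0.675 FPKM in unstimulated heterozygous libraries. Heterozygous cultures 2 and 3 were below all other libraries and heterozygous culture 1 was above the knockout libraries, so the labelled genotypes overlapped. Its gene model shares exon bases with Ttc33 and Gm15937 on the other strand, and the counting is not stated to use strand. In a fit with a lower limit of 0.5 FPKM, Ptger4 differed between genotypes by 0.19 with IL-17A on the log2(FPKM + 1) scale (SE 0.208, limma adjusted p = 0.642).

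Ptger2 (ENSMUSG00000037759, chr14:44988195-45003820, plus strand), the gene of EP2, was listed at 0 in 7 libraries and at or under the level of 3 fragments in 8, with a highest value of 0.0723 FPKM. At this depth no difference in Ptger2 was detectable. None of the other 7 prostanoid receptor genes reached the limit for testing. Ptger1 (EP1) ranged from 0.375 to 0.636 FPKM and Ptger3 (EP3) from 0.0774 to 0.295 FPKM, and Ptgdr and Tbxa2r, receptors of prostaglandin D2 and thromboxane, were listed at 0 in 10 of 10 libraries.

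The comparison of Bcl10-/- with Bcl10+/- keratinocytes asks which genes depend on the remaining normal copy of Bcl10. With IL-17A, Ptgs2 averaged 153 ± 21.4 FPKM in knockout libraries (SD, n = 2) and 209 ± 21.0 FPKM in heterozygous libraries (SD, n = 3). Its difference was -0.45 on the log2(FPKM + 1) scale, with an SE of 0.122 and a nominal 95% interval from -0.69 to -0.21. Nominal intervals here use the normal distribution, which ignores that the SE was estimated from few libraries. They are therefore too narrow for 95%, and the p-values do not rest on them. The unadjusted p was 0.0054 and the adjusted p 0.507 by limma over 12054 genes, so Ptgs2 did not pass. The other tested synthesis genes had negative differences that did not pass either: -0.21 for Ptges, -0.25 for Ptges3, -0.27 for Pla2g4a (adjusted p = 0.507 by limma for each) and -0.21 for Ptges2 (adjusted p = 0.55 by limma). Hpgd had a difference of 0.35, with an SE of 0.334. In this comparison 0 of 6 tested members passed, and 0.0249% of all genes did. An unadjusted limma p under 0.05 was found for 981 of 12054 genes, a larger share than that cut-off would give if no gene differed. The median difference was -0.23 over the 6 members and -0.01 over all genes. This fit treats libraries that share a culture as independent. With culture as a random block the SE of the Ptgs2 difference was 0.165 (unadjusted p 0.0238, adjusted p 0.472 by limma).

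Without stimulation the differences were smaller. Ptgs2 averaged 154 ± 6.21 FPKM in knockout libraries (SD, n = 2) and 183 ± 6.88 FPKM in heterozygous libraries (SD, n = 3), a difference of -0.24 on the log2(FPKM + 1) scale (SE 0.122, limma adjusted p = 0.728). Ptges differed by -0.18, Pla2g4a by -0.17, Ptges2 by -0.12, Ptges3 by -0.06 and Hpgd by 0.26. In this comparison 0 of 6 members and 0% of all genes passed by limma. Of 12054 genes, 562 had an unadjusted limma p under 0.05, a smaller share than that cut-off would give if no gene differed. Knockout lay below heterozygous with no overlap for Ptgs2 and Ptges without stimulation and for these and Ptges3 and Pla2g4a with IL-17A, against 15.4% and 13.8% of all tested genes. The comparisons share no libraries but share cultures.

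**Figure D3:**
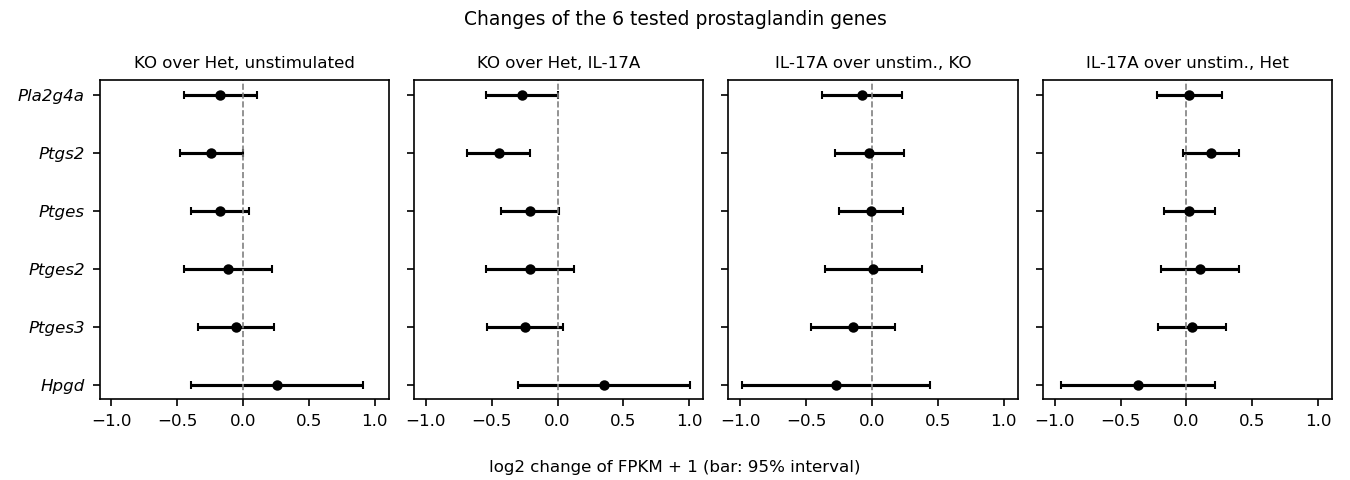
Changes of the 6 tested genes on the log2(FPKM + 1) scale (horizontal axis) in 4 comparisons from 1 limma fit, over 2 knockout and 3 heterozygous libraries per condition. Points are estimates. Bars are nominal 95% intervals from the normal distribution, which are too narrow for so few libraries. None passed after adjustment, and the Ptgs2 difference between knockout and heterozygous with IL-17A (-0.45) is the one farthest below 0.

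These differences depended on which heterozygous culture they were set against. Within libraries 1 to 14, an added comparison of both knockout cultures with heterozygous culture 1, Ptgs2 differed by -0.60 with IL-17A and -0.18 without, and Ptges by -0.09 and -0.08. The heterozygous side is there 1 library per condition, which is assumed to vary as the knockout libraries do. In the same comparison Hpgd turned to -0.35 with IL-17A and -0.13 without, Ptges2 to 0.07 with IL-17A, and Ptges3 and Pla2g4a to 0.20 and 0.02 without (limma adjusted p at least 0.977 for these). Without heterozygous culture 1, Ptgs2 differed by -0.37 and Hpgd by 0.70 with IL-17A (limma adjusted p = 0.0782 and 0.0524), and 0 of 6 members passed, though 6.65% of all genes did with IL-17A and 0.970% without. Across all libraries, Ptges, Ptges3 and Pla2g4a were higher in each of libraries 33 to 38 than in any of 1 to 14, as were 18.4% of tested genes, and 17.4% were lower. The summed level of 4 melanocyte markers was 307 to 393 FPKM in libraries 33 to 38 and 164 to 190 FPKM in libraries 1 to 14. Its part in these differences was not tested.

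Weighting libraries changed the calls. Such weights are estimated from how far each library departs from the fit, not from measured quality. The planned weights, from limma's default method, stopped before they converged and gave heterozygous culture 3 weights of 33.4 with IL-17A and 11.8 without, against 0.197 to 1.14 for the other 8 libraries. With them, 4 of 6 members passed between genotypes with IL-17A (Ptgs2, Ptges and Pla2g4a lower in knockout, Hpgd higher), when 29.5% of all genes passed. Ptgs2, Ptges and Hpgd passed in the same directions without stimulation, beside 24.3% of all genes, and Ptges2, Ptges and Hpgd passed for IL-17A in heterozygous cultures, beside 38.6%. With weights from limma's gene-by-gene method, added after those calls had been seen, 0 of 6 members passed in any comparison. Of 12054 genes, 646 then passed between genotypes without stimulation and 20 with IL-17A. For IL-17A, 128 passed in heterozygous cultures, 8 in knockout cultures and 31 in the average over cultures, and 4 passed for the difference in response.

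IL-17A against no stimulation asks which genes respond to the cytokine. Averaged over the 5 cultures, Hpgd was lower with IL-17A by 0.33 on the log2 scale (log2 change -0.33, SE 0.085), lower in 5 of 5 cultures, with an unadjusted p of 0.00645 and an adjusted p of 0.532 by limma. Its change was -0.35 and -0.20 in knockout cultures 1 and 2, and -0.06, -0.62 and -0.44 in heterozygous cultures 1, 2 and 3. Of all tested genes, 4.29% were lower in 5 of 5 cultures. Ptgs2 was higher with IL-17A in 4 of 5 cultures, with an average log2 change of 0.10 (SE 0.081, limma adjusted p = 0.932), and lower in knockout culture 1. Without knockout culture 1 the average was 0.18, and without heterozygous culture 1 it was 0.03. The changes of Ptges, Ptges2, Ptges3 and Pla2g4a lay between -0.03 and 0.07. In the average, 0 of 6 members and 0.149% of all genes passed. An unadjusted limma p under 0.05 was found for 727 of 12054 genes, a larger share than that cut-off would give if no gene differed.

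**Figure D4:**
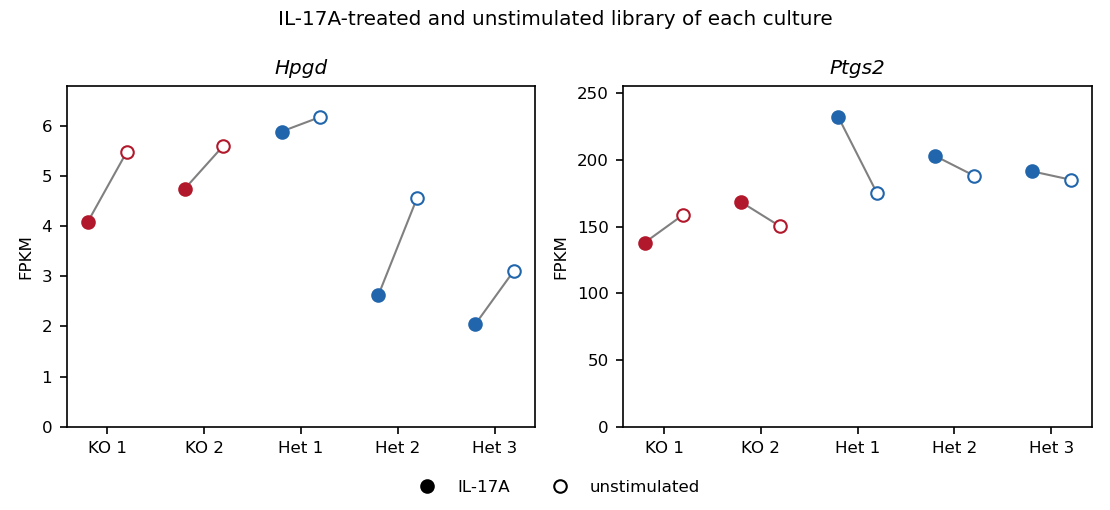
FPKM of Hpgd and Ptgs2 (vertical axes from 0) in the IL-17A-treated (filled) and unstimulated (open) library of each culture, joined by a line; knockout cultures are red and heterozygous ones blue. Hpgd is lower with IL-17A in 5 of 5 cultures, and Ptgs2 is higher in 4 of 5.

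Within genotypes, Ptgs2 changed by -0.02 with IL-17A in knockout cultures (SE 0.134) and by 0.19 in heterozygous cultures (SE 0.109), with a limma adjusted p of 1 in each. Hpgd changed by -0.27 in knockout cultures (SE 0.366) and -0.37 in heterozygous cultures (SE 0.299). The SEs of this fit leave out the pairing of libraries by culture. With culture as a fixed block the Hpgd SEs were 0.141 in knockout and 0.115 in heterozygous cultures. The unadjusted p was then 0.103 and 0.0199, and the adjusted p 0.891 and 0.675, by limma. Without heterozygous culture 1, the change in heterozygous cultures was 0.08 for Ptgs2 and -0.53 for Hpgd. The Hpgd value lay between -0.72, without the IL-17A-treated library of heterozygous culture 1, and -0.13, without that of heterozygous culture 3, and was -0.18 without the unstimulated library of culture 1 and -0.58 without that of culture 3. In each genotype 0 of 6 members passed, beside 0.0249% of all genes in knockout and 0.00830% in heterozygous cultures. The difference between the responses, knockout minus heterozygous, was -0.21 for Ptgs2 (SE 0.173) and 0.10 for Hpgd (SE 0.472). The nominal 95% interval for Ptgs2, too narrow as above, ran from -0.55 to 0.13. With culture as a fixed block the SE of this difference was 0.157 for Ptgs2 and 0.182 for Hpgd. The Ptgs2 difference was -0.02 without knockout culture 1 and -0.10 without heterozygous culture 1. Here 0 of 6 members and 0% of all genes passed by limma. Of 12054 genes, 143 had an unadjusted limma p under 0.05, a smaller share than that cut-off would give if no gene differed. For comparison, Sprr2e, a cornified envelope gene, stood at 20.0 to 21.7 FPKM in the IL-17A-treated libraries and 5.73 to 9.11 FPKM in the unstimulated ones.

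Regulators of Ptgs2 transcription and mRNA decay (10 genes, all tested, none passing) included Cebpd, a C/EBP factor. Cebpd stood at 32.3 and 27.7 FPKM in IL-17A-treated and 15.9 and 17.2 FPKM in unstimulated knockout libraries, and at 25.8, 29.9 and 27.6 FPKM in IL-17A-treated and 16.7, 21.0 and 19.7 FPKM in unstimulated heterozygous libraries. The IL-17A-treated libraries did not overlap the unstimulated ones, a pattern whose share over all genes is not given here. The average log2 change was 0.64 (SE 0.079, limma adjusted p = 0.0619). Zfp36l1, which promotes the decay of AU-rich mRNAs, changed by 0.17 on average (limma adjusted p = 0.686), and Hnrnpd, an AU-rich element binding protein, ranged from 20.6 to 35.7 FPKM. Creb1, a factor activated by cyclic AMP signalling, stood at 10.0 to 11.2 FPKM in the unstimulated libraries of both knockout cultures and heterozygous culture 2, and at 3.41 to 4.23 FPKM in the other 7 libraries.

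Genes that respond to cyclic AMP, the second messenger of EP2 and EP4, numbered 10, of which 6 were tested and none passed. Their median log2 change with IL-17A was 0.07 in the average over cultures, against -0.01 over all genes. Nr4a1, a nuclear receptor gene, ranged from 2.85 to 4.60 FPKM, Sik1, a salt-inducible kinase gene, from 18.0 to 30.1 FPKM, Per1, a clock gene, from 6.61 to 11.6 FPKM and Pde4b, a phosphodiesterase gene, from 0.604 to 1.58 FPKM.

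The lipoxygenase branch, which uses the same arachidonic acid, had 14 genes with a row, of which 4 were tested and none passed. Lta4h, leukotriene A4 hydrolase, ranged from 27.9 to 34.7 FPKM. Alox12b, a lipoxygenase of the skin barrier, changed by 0.28 with IL-17A on average (SE 0.110, limma adjusted p = 0.82). Ltb4r1 and Ltb4r2, leukotriene B4 receptor genes, stood at 2.67 to 4.49 FPKM and 3.75 to 5.70 FPKM in libraries 33 to 38 and at 6.04 to 7.07 FPKM and 6.73 to 12.9 FPKM in libraries 1 to 14. Alox15, Alox12e, Ltc4s and Cysltr2 were listed at 0 in 10 of 10 libraries.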

How the data were processed

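RNA from 10 keratinocyte libraries was made from 100 ng of total RNA with poly(A) selection, per the labels' protocols. The authors deposited 1 table of FPKM values; they name HISAT2, SAMtools, StringTie and DESeq2 as tools and mm10 as build, per the submitters' processing notes, with versions, strand setting and annotation release not given in the sources used here. Identifiers were matched to GENCODE M21 (GRCm38); promoters are RefSeq's.

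Groups came from the labels. The 12054 genes averaging 1 FPKM or more were tested on log2(FPKM + 1) with limma 3.58.1 in R 4.3.3 with its trend, in 1 fit of 4 group means; the average over cultures used culture as a fixed block. Tests were two-sided, with Benjamini-Hochberg adjustment across the tested genes, with a threshold of 0.05. Folds on this scale understate changes of low genes. The fit was tested on simulated data for IL-17A in knockout only, with independent noise and no differences between cultures. That test says nothing on the comparisons between genotypes. The table gives no counts, so depth was read from steps: 45.7% to 52.4% of values worth 1 to 3 fragments fell within 0.05 of a whole one, against 10% if spread evenly. Floors are 3 fragments and cover counting error only.

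The labels do not say whether replicate numbers stand for animals or wells, so the p-values rest on a spread among libraries that may be technical. Numbers were taken as pairs within a genotype from the titles. Deviations from group means of same-numbered libraries correlated at 0.227 in knockout cultures and at 0.607, 0.488 and 0.137 in heterozygous cultures. With 2 knockout libraries per group the deviations mirror each other, so both cultures give the same value. In heterozygous cultures the deviations also hold the split of library numbers, so these correlations cannot settle the pairing. Bcl10 was 0.969 FPKM without and 16.4 FPKM with IL-17A in knockout culture 1, a log2 change of 3.14, against -0.14 to 0.11 in the other pairs. The 10 highest genes held 12.6% of the FPKM sum in that unstimulated library and 8.21% to 8.66% in the others. Whether the libraries of knockout culture 1 form a pair was not tested, and the changes given for it rest on this pairing. The members, lists and tests were chosen with earlier results of these data known. Named beside the members and Bcl10 were list genes that passed or had the 2 smallest p-values of their list per comparison, and, for a member with an SD of at least 0.25, its 3 nearest profiles; other list genes, among them those at 0, and Sprr2e were named after their values were seen. Alternatives covered the pseudocount, filters, scaling, trend, library weights, blocks and left-out libraries.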

Additional observations from a re-analysis of the deposited data

Results flagged for a closer look

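In Ptgs1, both knockout cultures were higher with IL-17A (log2 changes of 0.05 and 0.13) and all 3 heterozygous cultures were lower (-0.01, -0.11 and -0.06). The mean of the knockout cultures minus that of the heterozygous cultures was 0.151 on the log2(FPKM + 1) scale. Ptgs1 was too low for the tests; in a fit with no limit on low values this difference had an SE of 0.268 and an adjusted p of 1 by limma. With the same limit lifted and the cultures paired as a block, a fit added after seeing the data, the SE was 0.053, the unadjusted p 0.0391 and the adjusted p 0.843 by limma. Ptgs1 was flagged because the cultures of each genotype all went one way and opposite to the other genotype. The paired fit tests those same changes, so its unadjusted p is no independent support. All Ptgs1 values lay under 1 FPKM, that of unstimulated knockout culture 1 was under the level of 3 fragments, and the higher values of knockout culture 2 stood beside its fibroblast markers, whose part was not tested.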

How the results depend on the processing

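In the fits as reported 0 of 6 members passed in any of the 6 comparisons, and this count held under every alternative but 1. That exception was planned: library weights by limma's default method, whose estimate stopped before convergence, gave 3 members for IL-17A in heterozygous cultures, 3 between genotypes without stimulation and 4 with IL-17A. The gene-by-gene weights were added after this was seen and gave 0, beside the counts over all genes given above. The cause of the difference between the weightings was not tested. The block by culture, which pairs libraries, also left 0 of 6 members passing in each comparison.

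Directions of small changes turned. With the default weights Ptges3 changed by -0.046 with IL-17A in heterozygous cultures, and with the gene-by-gene weights by -0.035. With TPM scaling Ptgs2 changed by 0.019 and Ptges by 0.030 with IL-17A in knockout cultures, and the Ptges difference in response was 0.004. Within libraries 1 to 14, a comparison chosen after seeing the data, knockout against heterozygous was 0.074 for Ptges2 and -0.349 for Hpgd with IL-17A, and 0.197 for Ptges3, -0.134 for Hpgd and 0.015 for Pla2g4a without. There the difference in response was 0.085 for Ptges2 and -0.215 for Hpgd. Leaving out a library or a culture turned the sign of some changes, given with their lowest and highest log2 values. For IL-17A in knockout cultures these were Ptgs2 (-0.203 to 0.163), Ptges (-0.057 to 0.040), Ptges2 (-0.137 to 0.160) and Pla2g4a (-0.221 to 0.068). For IL-17A in heterozygous cultures these were Ptges (-0.058 to 0.083), Ptges2 (-0.005 to 0.245), Ptges3 (-0.083 to 0.161) and Pla2g4a (-0.074 to 0.107). For the difference in response these were Ptges (-0.091 to 0.050), Ptges2 (-0.240 to 0.057), Hpgd (-0.142 to 0.447) and Pla2g4a (-0.241 to 0.048). For the average over cultures these were Ptges (-0.008 to 0.024), Ptges3 (-0.091 to 0.002) and Pla2g4a (-0.046 to 0.011). For knockout against heterozygous without stimulation these were Ptges3 (-0.182 to 0.062). The cause was not tested. Ptgs2 and Ptges stayed lower in knockout in both conditions under every alternative run. For both genes every knockout library lay below every heterozygous one. Leaving out or weighting libraries, the pseudocount and the filters therefore could not turn the sign. With 2 or 3 libraries a group, Ptger2 and Ptgs1 lie at levels where depth limits any comparison.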
